A study of Mus musculus with 8 samples.

Results

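The genes described here make, interconvert and recycle nucleotides. They were followed while mouse embryonic fibroblasts (MEFs) were reprogrammed into induced pluripotent stem cells (iPSCs). The members are a list of 37 enzyme genes matched by symbol, and all 37 were found, on 1 row each, among the 17922 rows of the deposited gene table. They were ordered by role into 11 genes of purine synthesis, 5 of pyrimidine synthesis, 8 of deoxynucleotide supply, 10 of salvage and 3 nucleotide kinases. The 4 long RNA libraries were 1 each from MEFs before induction (day 0), from cells at day 3 and at day 6 of induction, and from fully reprogrammed iPSCs. The MEFs came from C57BL/6 fetuses of embryonic day 13.5 that carried tetO-OSKM, which are doxycycline-inducible copies of Oct4 (Pou5f1), Sox2, Klf4 and Myc, and expression was induced with 2 ug/ml doxycycline. Induced cells were kept in knockout serum replacement with added LIF, N-2 and CHIR99021, an inhibitor of GSK3. The medium of the uninduced MEFs, and whether the iPSCs still received doxycycline, were not given in the sources used here. The series' 4 small RNA libraries were not analysed here.

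Cells build purine rings stepwise on phosphoribosyl pyrophosphate (PRPP) up to inosine monophosphate (IMP), which is then turned into AMP or GMP. Pyrimidines are built as orotate before the sugar is attached, and CTP is made from UTP. Ribonucleotide reductase converts ribonucleotides to the deoxynucleotides used for DNA, thymidylate is made from dUMP, and salvage enzymes return free bases and nucleosides to the nucleotide pool. Several of these genes are known to be expressed most in S phase, among them those of the small reductase subunit and of thymidine kinase.

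Values are FPKM, which are fragments scaled to gene length and library size, so levels of different genes can be set side by side. An FPKM value is a share of its library, and in such bulk samples fewer cells of a type and less RNA per cell cannot be told apart. Each stage had 1 library, so there is no replicate error and no test. A gene is called higher or lower when its difference on the log2(FPKM + 1) scale was at least 1, which is about 2-fold for all but weak genes, with 1 FPKM or more in the higher library. The libraries held between 11588 and 11736 rows of at least 1 FPKM, and their columns summed to between 438130 and 486609 FPKM. Judged by the lowest values, depth relative to MEFs was 0.660 at day 3, 1.07 at day 6 and 1.00 in iPSCs. Against MEFs, the iPSC library had all 10 pluripotent cell markers higher and all 10 fibroblast markers lower, as its label says. Of the 18 S phase and proliferation genes listed beside the members, 13 were higher in iPSCs and 0 lower, and their summed level was 392 FPKM in MEFs, 419 FPKM on day 3, 499.7 FPKM on day 6 and 1783 FPKM in iPSCs. The leukocyte markers summed to 80.7, 59.6, 65.4 and 13.2 FPKM at the same stages. Of 6 leukocyte markers compared, 5 were lower in iPSCs than in MEFs. Lyz2 made up the largest part of the MEF sum, at 52.9 FPKM, and was at 0.0298 FPKM in iPSCs. Cd68 went the other way within the rule, at 8.45 FPKM in MEFs and 11.9 FPKM in iPSCs, most of the iPSC sum. Emr1 and Tyrobp were listed at 0 in iPSCs, as was Ptprc, which was under 1 FPKM in every library and not compared. The part of the proliferation genes and leukocyte markers in the values that follow was not tested.

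Promoters are shown for 5 members. They had the largest differences between iPSCs and MEFs among those with an available promoter sequence whose stretch overlapped no annotated gene. Pfas, with a difference of 2.38, had no promoter sequence in the reference used and is not shown. Cad, Dut and Ppat, which differed more than some of those shown, are left out because their stretches overlapped Atraid and Cad, Dut itself, and Paics. Each sequence is the 250 bases before the annotated start, 5′ to 3′ on the gene's strand, from RefSeq on build GRCm38.p6. Capitals mark exact matches on either strand to the E-box CACGTG, to the E2F-type core TTNNCGC, in which each N is G or C, or to the CCAAT box.
Upp1 (chr11:9117758-9118007, plus strand): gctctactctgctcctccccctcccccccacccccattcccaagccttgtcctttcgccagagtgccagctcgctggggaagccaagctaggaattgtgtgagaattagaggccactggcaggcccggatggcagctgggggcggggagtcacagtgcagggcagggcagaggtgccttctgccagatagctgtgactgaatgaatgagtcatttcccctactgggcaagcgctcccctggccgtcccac
Gart (chr16:91646973-91647222, minus strand): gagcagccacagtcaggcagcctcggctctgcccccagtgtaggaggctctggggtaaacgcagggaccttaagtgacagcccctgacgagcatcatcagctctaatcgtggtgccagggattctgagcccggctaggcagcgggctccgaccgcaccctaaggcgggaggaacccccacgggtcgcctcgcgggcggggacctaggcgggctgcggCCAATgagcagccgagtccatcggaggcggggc
Prps1 (chrX:140456353-140456602, plus strand): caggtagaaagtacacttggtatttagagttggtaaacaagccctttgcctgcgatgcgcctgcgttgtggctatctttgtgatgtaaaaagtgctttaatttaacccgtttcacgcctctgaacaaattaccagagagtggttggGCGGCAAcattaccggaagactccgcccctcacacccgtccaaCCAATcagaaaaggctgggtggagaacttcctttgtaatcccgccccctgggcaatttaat
Rrm2 (chr12:24708004-24708253, plus strand): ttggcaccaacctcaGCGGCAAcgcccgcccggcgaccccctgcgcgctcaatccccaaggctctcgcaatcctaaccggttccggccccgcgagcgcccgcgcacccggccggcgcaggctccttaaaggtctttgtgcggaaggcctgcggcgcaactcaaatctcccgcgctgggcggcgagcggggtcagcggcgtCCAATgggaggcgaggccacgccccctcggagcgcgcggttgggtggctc
Impdh2 (chr9:108560186-108560435, plus strand): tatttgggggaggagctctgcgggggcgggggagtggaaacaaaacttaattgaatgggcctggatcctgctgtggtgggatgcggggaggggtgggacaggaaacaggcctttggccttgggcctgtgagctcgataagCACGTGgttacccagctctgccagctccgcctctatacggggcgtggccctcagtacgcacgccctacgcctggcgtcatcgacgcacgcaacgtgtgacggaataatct

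The Prps1 stretch held 1 E2F-type core and 1 CCAAT box, that of Impdh2 held 1 E-box, and that of Gart 1 CCAAT box. Rrm2 had 1 E2F-type core and 1 CCAAT box, of which the CCAAT box began 50 bases before the start. The Upp1 stretch, the farthest upstream of 3 annotated starts, held none of these letters. Of the 3 stretches left out, that of Ppat held 3 E2F-type cores, and those of Cad and Dut held none of the motifs searched. In the windows described next, which also take in 50 bases after the start and any other annotated starts, Cad held an E2F-type core. Promoter windows of 250 bases before to 50 after the start were found for 34 of the 37 members, all but Pfas, Dhodh and Rrm2b. An E-box stood in the windows of 6 of the 34 (17.6%), an E2F-type core in those of 10 (29.4%) and a CCAAT box in those of 13 (38.2%). Among all 27025 genes with a window the shares were 8.09%, 10.9% and 41.1%, and among the 9206 of them with at least 1 FPKM in any library they were 12.0%, 19.8% and 43.5%. An E2F-type core could overlap a CCAAT box, as in the window of Impdh2 just after the start. Of the 12 members with a window that were called higher in iPSCs, 3 had an E-box, 6 an E2F-type core and 7 a CCAAT box, against 3, 4 and 6 of the other 22. These are letter matches and were not tested.

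Purine synthesis genes were mostly higher in the iPSC library. Of the branch's 11 members, 7 were higher in iPSCs and 0 lower, and the median difference was 1.36 on the log2(FPKM + 1) scale. Over all 37 members 14 were higher and 3 lower (37.8% and 8.11%), where 21.1% of the 12937 rows compared were higher and 25.0% lower. In either direction 45.9% of members were past the rule, against 46.0% of all rows, so members passed it about as often as the table as a whole. Of those past it, 14 of 17 members were higher, against 2724 of 5956 rows. The median difference was 0.72 over the members and -0.05 over all rows compared.

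**Figure D1:**
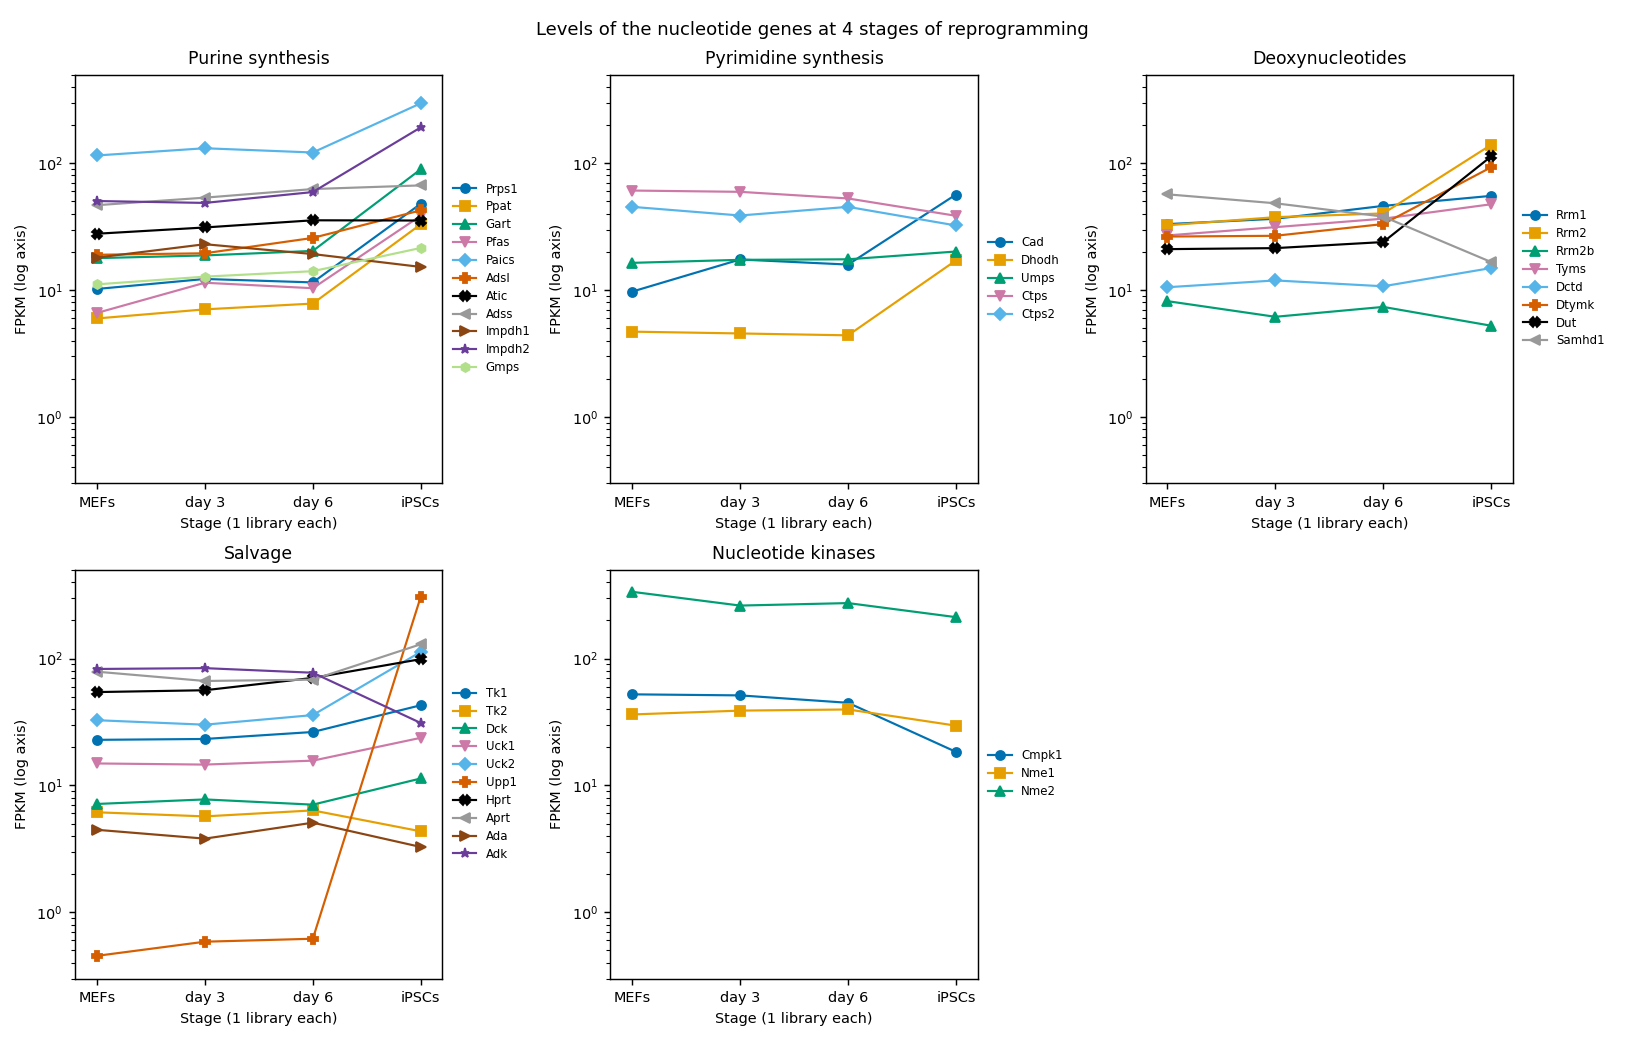
FPKM (log axis) of the 37 members in the 4 libraries, 1 panel per branch, with 1 line and marker per gene and 1 library per stage. Most lines are nearly flat through day 6 and part at the iPSC library, where Upp1 reaches 308 FPKM and Adk, Samhd1 and Cmpk1 are below their earlier values.

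On the way to IMP, Prps1, Ppat, Gart, Pfas and Paics were all higher in iPSCs than in MEFs. Prps1, which makes PRPP, was at 10.2 FPKM in MEFs, 12.2 FPKM on day 3, 11.5 FPKM on day 6 and 47.9 FPKM in iPSCs. Ppat, the amidotransferase of the committed step, was at 5.97, 7.04, 7.83 and 33.0 FPKM. Gart, a multifunctional enzyme of the middle steps, was at 17.8, 18.7, 20.4 and 89.6 FPKM. In each of these the iPSC value was 4.70 to 5.53 times the MEF value, with the other 3 libraries close together. Pfas, which adds a nitrogen to the growing ring precursor, was at 6.60, 11.4, 10.3 and 38.6 FPKM, so its day 3 and day 6 values already lay above MEFs. Paics, a bifunctional enzyme that carboxylates the intermediate and adds aspartate, was the most abundant of the branch at 115.1, 131.2, 121 and 297 FPKM, at percentile 98.3 of rows of at least 1 FPKM in iPSCs and 94.6 in MEFs. Ppat and Paics overlap at their starts by 277 bases on build GRCm38, and the strand setting of the quantification was not given in the sources used here, so reads of the shared stretch cannot be assigned. Their iPSC over MEF folds were 5.53 for Ppat and 2.58 for Paics.

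Of the 3 genes of the last steps to IMP and AMP, 1 passed the rule. Adsl, the lyase that acts both in the ring pathway and on the way to AMP, was at 19.0, 19.5, 25.8 and 42.5 FPKM from MEFs to iPSCs. Its difference of 1.12 was the smallest among the members past the rule. Atic, which completes IMP, was at 27.8, 31.1, 35.5 and 35.3 FPKM, and Adss, the synthetase that commits IMP to AMP, at 46.7, 53.5, 62.6 and 66.8 FPKM. For these 2 genes the day 6 value had nearly or fully reached the iPSC value, and neither passed the rule (0.34 and 0.51). Toward GMP, Impdh2, an isoform of the rate-limiting IMP dehydrogenase, was at 50.3, 48.6, 59.2 and 192 FPKM, a difference of 1.91. The other isoform, Impdh1, was at 18.0, 23.0, 19.2 and 15.2 FPKM and did not pass the rule (-0.23). Gmps, which makes GMP, was at 11.1, 12.8, 14.1 and 21.5 FPKM. Its difference of 0.89 lay just under the rule. Gmps overlaps Slc33a1 in the annotation, which had 6.13 FPKM in iPSCs and 29.5 FPKM in MEFs.

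In pyrimidine synthesis the enzymes of orotate formation were higher in iPSCs and the CTP synthases were not. Cad (ENSMUSG00000013629), the multifunctional enzyme of the opening steps, was at 9.72 FPKM in MEFs, 17.4 FPKM on day 3, 15.9 FPKM on day 6 and 56.7 FPKM in iPSCs. Dhodh, the mitochondrial dihydroorotate dehydrogenase, was at 4.70, 4.55, 4.40 and 17.1 FPKM. Both were past the rule in iPSCs against MEFs, with differences of 2.43 and 1.67. Umps, which turns orotate into UMP, was at 16.4, 17.3, 17.5 and 20.1 FPKM and had a difference of 0.28. Ctps, a CTP synthase, was at 60.9, 59.5, 52.7 and 38.5 FPKM, each stage below the one before, and its paralog Ctps2 was at 45.3, 38.7, 45.3 and 32.3 FPKM. Neither CTP synthase passed the rule (-0.65 and -0.48). The branch had 2 of 5 members higher and 0 lower, beside 21.1% and 25.0% of all rows. Its median was 0.28.

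In deoxynucleotide supply, 3 of 8 members were higher in iPSCs and 1 was lower, against MEFs. The shares over all rows were 21.1% higher and 25.0% lower. Rrm2 (ENSMUSG00000020649), the small subunit of ribonucleotide reductase in cycling cells, was at 32.4, 37.6, 40.2 and 139.8 FPKM from MEFs to iPSCs. Dut, which hydrolyses dUTP and so supplies dUMP, was at 21.0, 21.4, 23.9 and 113 FPKM. Dtymk, the kinase of thymidylate, was at 26.4, 26.8, 33.1 and 93.0 FPKM. The iPSC library was the high one for all 3, at 4.32, 5.39 and 3.52 times the MEF value. Rrm1, the large reductase subunit, was at 33.1, 36.4, 46.1 and 55.3 FPKM and Tyms, thymidylate synthase, at 27.0, 31.3, 36.5 and 47.5 FPKM. Each of these was higher at every stage than at the stage before, with differences of 0.72 and 0.79 that did not pass the rule. Dctd, which deaminates dCMP to dUMP, was at 10.5, 11.9, 10.7 and 14.9 FPKM. The branch median was 0.76, beside one of 1.98 for the S phase and proliferation genes, whose part in it was not tested.

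Samhd1 (ENSMUSG00000027639), a hydrolase that degrades deoxynucleoside triphosphates, went the other way. It was at 56.8 FPKM in MEFs, 48.3 FPKM on day 3, 37.9 FPKM on day 6 and 16.6 FPKM in iPSCs, each stage below the one before. The MEF value was 3.42 times the iPSC value, and the difference of -1.72 was the most negative among the members. Rrm2b, the p53-inducible small reductase subunit, was at 8.18, 6.15, 7.36 and 5.23 FPKM and did not pass the rule (-0.56). The leukocyte markers, of cells that also express Samhd1, summed to 13.2 FPKM in iPSCs and 80.7 FPKM in MEFs. Most of the MEF sum was Lyz2 (52.9 FPKM), and most of the iPSC sum was Cd68 (11.9 FPKM), which was not lower there. The part of these markers in the Samhd1 values was not tested.

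Salvage genes were mixed, with 2 of 10 higher in iPSCs than in MEFs and 1 lower. Over all rows 21.1% were higher and 25.0% lower, so the salvage share higher was near that of the table. Upp1 (ENSMUSG00000020407), uridine phosphorylase, which splits uridine into uracil and ribose phosphate, was at 0.453 FPKM in MEFs, 0.585 FPKM on day 3, 0.618 FPKM on day 6 and 308 FPKM in iPSCs. The difference of 7.73 was the largest among the members, and in iPSCs Upp1 was the most abundant of the 37. The values of the other 3 libraries were under 1 FPKM and are imprecise, so the fold of 680.3 over MEFs is rough. Uck2, a uridine-cytidine kinase, was at 32.6, 30.1, 35.8 and 113 FPKM. Its paralog Uck1 was at 14.9, 14.6, 15.7 and 23.7 FPKM, within the rule at 0.64. In contrast to these, Adk, which phosphorylates adenosine, was at 82.7, 83.9, 77.2 and 31.0 FPKM. The MEF value of Adk was 2.67 times the iPSC value.

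The remaining salvage enzymes did not pass the rule. Hprt, which salvages hypoxanthine and guanine, was at 54.4, 56.2, 70.3 and 98.9 FPKM (0.85), and Aprt, which salvages adenine, at 78.7, 66.5, 68.1 and 129.6 FPKM (0.71). Tk1, the cytosolic thymidine kinase, was at 22.8, 23.2, 26.3 and 42.8 FPKM (0.88). The iPSC library was the high one for all 3. Dck, deoxycytidine kinase, was at 7.13, 7.75, 7.05 and 11.3 FPKM (0.60). Ada, adenosine deaminase, at 4.46, 3.80, 5.08 and 3.27 FPKM, and Tk2, the mitochondrial thymidine kinase, at 6.13, 5.69, 6.35 and 4.34 FPKM, were lowest in iPSCs, within the rule (-0.36 and -0.42).

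The kinases that carry monophosphates and diphosphates onward were below MEFs in iPSCs. Cmpk1, the UMP-CMP kinase, was at 52.2, 51.2, 44.8 and 18.4 FPKM, a difference of -1.46 that passed the rule. Nme2, a nucleoside diphosphate kinase, was the most abundant member in MEFs at 336 FPKM, with 261 FPKM on day 3, 273 FPKM on day 6 and 212 FPKM in iPSCs (-0.66). Nme1, its paralog, was at 36.2, 38.8, 39.7 and 29.6 FPKM (-0.28). Nme1 and Nme2 are close copies, and how reads shared by them were assigned was not given in the sources used here, so the split between the 2 is uncertain.

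**Figure D2:**
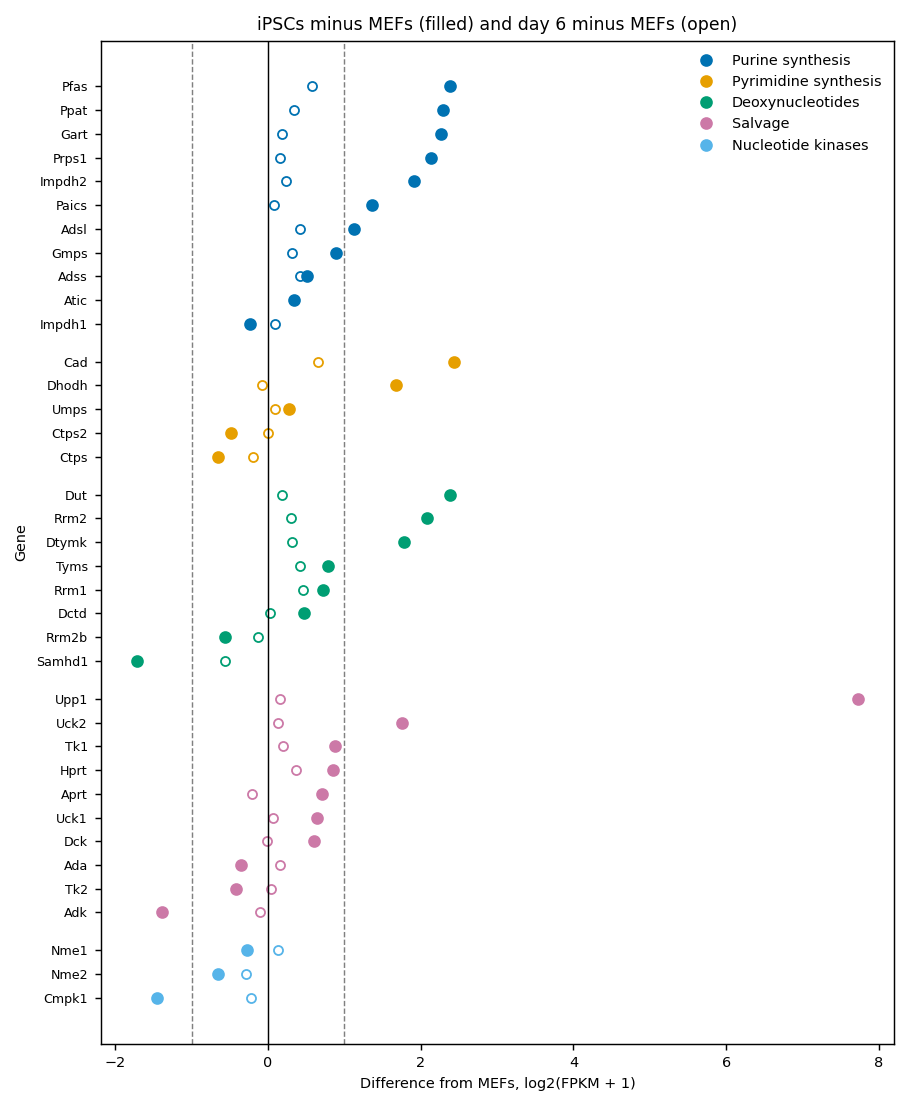
Differences from MEFs on the log2(FPKM + 1) scale, filled for iPSCs and open for day 6, by gene and coloured by branch; dashed lines mark a difference of 1 in either direction. Filled points run from -1.72 (Samhd1) to 7.73 (Upp1), all open points lie between the dashed lines, and for Atic both points lie at 0.34.

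The branches thus took different shares of the members' summed level. Purine synthesis summed to 329 FPKM in MEFs, 369 FPKM on day 3, 388 FPKM on day 6 and 879 FPKM in iPSCs, and deoxynucleotide supply to 215, 219.9, 236 and 486 FPKM. Salvage summed to 304, 292, 313 and 766 FPKM, and without Upp1 to 458 FPKM in iPSCs. Pyrimidine synthesis differed less, at 137, 137, 136 and 165 FPKM, and the nucleotide kinases summed to 424, 351, 358 and 259.7 FPKM. The kinases, mostly Nme2, made up 10.2% of the members' sum in iPSCs and 30.1% in MEFs, and purine synthesis made up 34.4% in iPSCs and 23.3% in MEFs. The sum over all 37 was 1409, 1370.2, 1429.7 and 2555 FPKM.

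Up to day 6 no member passed the rule, in a table where few rows did. Against MEFs, 0 of the 10 fibroblast markers were lower at day 3, and 0 at day 6. Of the 10 pluripotent cell markers only 2 could be compared on each day. Of these 1 was higher, Pou5f1, which is also an induced factor. At day 3 against MEFs 0 of 36 members compared were higher and 0 lower, with 0.170% and 0.0511% of all rows. At day 6 against MEFs the counts were 0 and 0 of 36, with 0.770% and 0.584% of all rows, and at day 6 against day 3 they were 0 and 0, with 0.457% and 0.398%. Upp1 was under 1 FPKM in these libraries and was not compared. Over MEFs, day 3 and day 6 the highest value of a member was 1.07 to 1.79 times its lowest, with a median of 1.22, and for 35 of 37 members it was under 1.5 times. The other 2 were Cad and Pfas.

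Cad and Pfas were the members farthest above MEFs at day 3. Cad was 1.79 times and Pfas 1.73 times its MEF value at day 3, or 0.78 and 0.71 on the log2(FPKM + 1) scale. These differences stood at percentiles 99.6 and 99.4 of all rows compared. Over rows at 5 to 20 FPKM in both libraries, the robust SD of this difference was 0.151, which holds both noise and real differences. From day 3 to day 6 Cad and Pfas differed by -0.12 and -0.13. Impdh1 came next at day 3 with 0.33, and Nme2 and Rrm2b were farthest below MEFs with -0.36 each. By day 6 all 11 purine synthesis genes lay above their MEF values, by 0.08 to 0.58 with a median of 0.32. Over all rows compared 46.6% lay above, and the median was -0.02. The robust SD of this difference was 0.206 over rows at 10 to 100 FPKM in both libraries. Paics, Impdh1, Prps1 and Gart differed by less than that. Samhd1 was farthest below at day 6, with -0.57 at percentile 3.57. The S phase and proliferation genes had a median of 0.30 above MEFs at day 6, with 94.1% of 17 compared above.

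**Figure D3:**
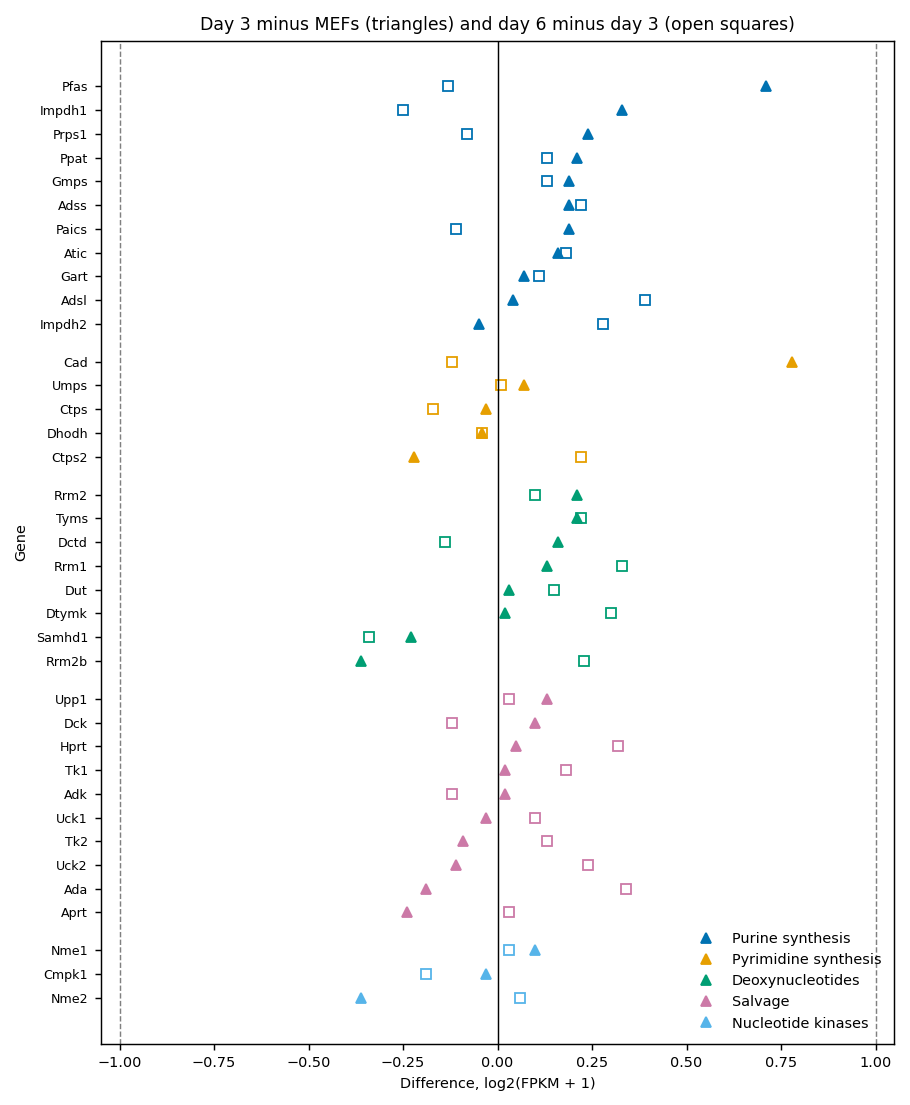
Differences on the log2(FPKM + 1) scale for day 3 minus MEFs (triangles) and day 6 minus day 3 (open squares), by gene and coloured by branch, with dashed lines at a difference of 1 in either direction. No point reaches a dashed line, and Cad (0.78) and Pfas (0.71) have the rightmost triangles; the 2 differences of a gene share the day 3 library.

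From day 6 to iPSCs, 13 members were higher and 3 lower in iPSCs, with 20.4% and 23.4% of 12951 rows. Adsl, past the rule against MEFs, was 0.70 above day 6 and within it. The comparison shares the iPSC library with that against MEFs. The order MEFs, day 3, day 6, iPSCs was one of increasing level for 14 of 37 members (37.8%), and for 11.0% of the 13101 rows of at least 1 FPKM in any library. Those 14 included 5 of the 8 genes of deoxynucleotide supply (Rrm1, Rrm2, Tyms, Dtymk and Dut) and 5 of the 11 of purine synthesis (Ppat, Gart, Adsl, Adss and Gmps). The others were Umps, Tk1, Upp1 and Hprt. The reverse order held for Ctps, Samhd1 and Cmpk1, or 8.11% of members and 15.3% of rows. Steps between the early libraries were mostly small, so the order of these is imprecise.

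In 5 of 7 pairs of related enzymes the ratio, in the order given here, was highest in iPSCs. In the reverse order it would be lowest there. The ratios restate the differences of the single genes given above. A ratio within 1 library does not depend on how libraries are scaled to each other. Rrm2 was 3.96 times Rrm2b in MEFs, 6.10 times on day 3, 5.46 times on day 6 and 26.7 times in iPSCs. Impdh2 was 2.79, 2.12, 3.08 and 12.6 times Impdh1. The iPSC ratio was thus 6.75 times the MEF ratio for the reductase subunits and 4.51 times for the IMP dehydrogenases. Tk1 over Tk2 was 3.72, 4.08, 4.15 and 9.86, and Uck2 over Uck1 was 2.19, 2.06, 2.29 and 4.76. Prps1 was 0.906, 1.00, 0.810 and 2.24 times Prps2, a PRPP synthetase outside the 37 with 21.4 FPKM in iPSCs and 11.3 FPKM in MEFs. The ratio of Ctps to Ctps2, at 1.34, 1.54, 1.16 and 1.19, and that of Nme1 to Nme2, at 0.108, 0.149, 0.145 and 0.140, stayed closer together.

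**Figure D4:**
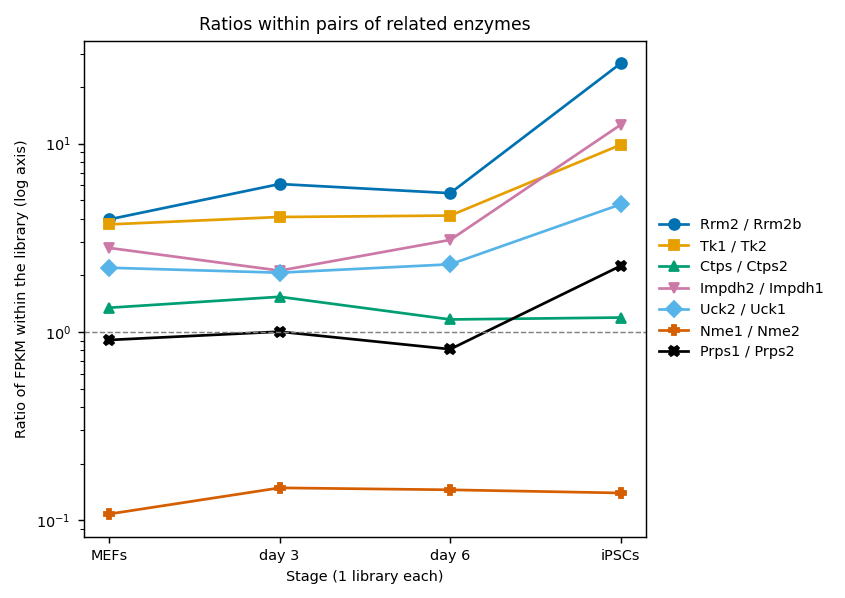
Ratio of FPKM within each library (log axis) for 7 pairs of related enzymes across the 4 stages, with a dashed line at equal levels. In iPSCs 5 of the ratios are above those of the other 3 libraries, up to 26.7 for Rrm2 over Rrm2b, while the Ctps and Nme ratios lie within the range of the other libraries.

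Genes of the pathway outside the 37 were compared in the same way, beside the 21.1% of all rows higher and 25.0% lower in iPSCs. Of 15 further genes of synthesis and phosphorylation compared, iPSCs had 6 higher and 3 lower relative to MEFs, and the median was 0.87. The mitochondrial adenylate kinase family member Ak4 was at 32.9 FPKM in iPSCs and 2.18 in MEFs, the nucleoside diphosphate kinase Nme3 at 19.0 and 1.33, and Prpsap2, a PRPP synthetase-associated protein, at 26.7 and 5.91. Other adenylate kinase genes were lower, with Ak3 at 9.14 FPKM in iPSCs and 63.7 in MEFs, Ak5 at 0.198 and 5.24, and Ak1 at 32.3 and 148. Members of the adenylate kinase family thus stood on both sides. Of 13 further salvage genes 0 were higher and 4 lower (median -0.59), led by Uprt with 0.408 FPKM in iPSCs and 8.56 in MEFs, Pnp, purine nucleoside phosphorylase, with 8.90 and 22.3, and Upp2 with 0.296 and 1.97.

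Among 9 breakdown and sanitation genes compared, iPSCs had 1 higher and 4 lower relative to MEFs (median -0.31). The nucleotidase genes Nt5e, whose product acts at the cell surface, Nt5c and Nt5m were at 1.10, 17.2 and 2.43 FPKM in iPSCs and 24.6, 58.1 and 9.22 in MEFs. Nudt1, which clears oxidised purine nucleotides, was the higher one at 17.2 FPKM in iPSCs and 5.62 in MEFs. Gda, guanine deaminase, passed the rule between day 6 (4.15 FPKM) and MEFs (1.45 FPKM), and was at 0.0321 FPKM in iPSCs. Of 5 nucleoside transporters compared 3 were higher and 1 lower in iPSCs, with Slc28a1 at 3.42 FPKM in iPSCs and 0.0149 in MEFs, Slc29a4 at 2.27 and 0.294, Slc29a2 at 2.86 and 0.683, and Slc29a3 at 2.29 and 5.71. The 3 higher transporter genes were weakly expressed in every library.

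Scaling bears on the genes near the rule. As deposited, the median difference of all rows compared between iPSCs and MEFs was -0.05, and after rescaling the libraries to the same upper quartile it was 0.14. With that rescaling, or with equal sums, Gmps, Tk1 and Hprt were also past the rule, for 17 higher and 3 lower members. All 3 nucleotide kinases remained below MEFs under both.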

How the data were processed

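Per the labels' protocols, total RNA was depleted of ribosomal RNA and made into long RNA libraries, 1 per stage. The authors deposited 1 table of FPKM values per gene, per the file headers. The submitters' processing notes name HISAT2, Cufflinks and build mm9, without role or version; gene models, strand setting, filters and any pooling were not given in the sources used here. Members were matched by symbol, and all 37 identifiers were found in a table of gene names. Differences were computed on log2(FPKM + 1) with Python 3.11.15, numpy 2.4.6 and pandas 2.3.3, and called at 1 or more with at least 1 FPKM in the higher library. The calling step was run on simulated data with differences well clear of the rule, which does not bear on members near it. With 1 library per stage no test was run, and depth is known only as a ratio of the lowest values (rows under 0.06 FPKM in both libraries). The members and gene lists were chosen with earlier results of these data known. A list gene with several rows was represented by its highest. All members are named. Other pathway genes and transporters are named by largest difference past the rule, up to 3 per list and direction. Leukocyte markers, Pou5f1, the partner of a member in a pair and genes that overlap a member are named outside this rule. Promoters came from RefSeq (GRCm38.p6), which is not the build of the table. Alternatives changed the pseudocount, minimum, size of difference, scaling and the treatment of rows at 0.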

Additional observations from a re-analysis of the deposited data

How the results depend on the processing

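No call has a replicate check, and depth limits most the values under 1 FPKM, such as those of Upp1 before the iPSC stage. No paired analysis was possible because there was 1 library per stage, and for the same reason no replicate could be left out. Of 64 counts and branch medians under the alternatives whose value as reported was not 0, 58 stayed within 1.5 times that value. Some of these could hardly move. No member was listed at 0, so leaving out rows at 0 could change no count. Changing the minimum FPKM altered no call and no branch median. The 6 counts of 0 among MEFs, day 3 and day 6 were also 0 in all alternatives run. With a log2 difference of 2 in place of 1, 8 members were higher and 0 lower in iPSCs against MEFs, and 3 were higher and 0 lower in iPSCs against day 6, as a stricter rule must give fewer calls. The pyrimidine median for iPSCs against MEFs (0.28) was 0.47 after upper quartile scaling and 0.44 with equal sums. The count of members increasing at every stage (14) was 15 and 18 under these scalings. A pseudocount of 5 took Adsl out of the calls against MEFs and Samhd1 out of those against day 6. Of 148 differences of single members between iPSCs and MEFs under alternatives, 135 stayed within 1.5 times, 13 moved further and 0 changed sign among those past the rule. What caused these shifts was not tested.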
